A study of Rattus norvegicus with 8 samples.

Results

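The endocannabinoid system of the rat amygdala was read through 6 genes: the cannabinoid receptor gene Cnr1, the synthesis enzyme genes Dagla and Napepld, and the degrading enzyme genes Faah, Mgll and Naaa. Of these 6, 4 were among the 14224 genes that a probe set names. Every probe set of the Rat Genome 230-2.0 array that the platform annotation gives to 1 of these symbols was taken. This found 9 of the 31042 probe sets that are not controls: 2 for Cnr1, 2 for Faah, 4 for Mgll and 1 for Naaa. Both Faah probe sets list 2 gene records, each with the symbol Faah. For Dagla and Napepld no probe set was listed, and they were not analysed here. A probe set was tested where its mean log2 signal over all arrays lay above the 40th percentile of all probe sets (log2 4.35), which 8 of the 9 did. The exception was an Mgll probe set.

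The 8 arrays came from 16 rats in 4 groups of 2 arrays, named A and B, and each array held RNA amplified in 2 rounds and pooled from 2 rats. All rats were operated on. Epileptogenic rats were stimulated in the amygdala, went through status epilepticus and had no spontaneous seizures during the study, whereas control rats were not stimulated. All rats, controls included, were first habituated to the apparatus, then put through 2 trials on day 8, each with 1 footshock of 1.5 mA for 1 s and 1 tone of 75 dB for 20 s, and were killed 3 h later. In paired training the tone ended with the shock, and in unpaired training the shock came before the tone. Each of the 2 states, control and epileptogenic, was thus studied after each of the 2 trainings. Strain, sex and age are not given in the sources used here. RNA came from the lateral and basal nuclei, cut out by laser on the ipsilateral side.

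Endocannabinoids are lipid messengers made on demand from membrane phospholipids. In the amygdala, 2-arachidonoylglycerol (2-AG) and anandamide are released from depolarised neurons, travel backwards across the synapse and act on the CB1 receptor, encoded by Cnr1, which lowers the release of GABA or glutamate from the axon terminal. Diacylglycerol lipases (Dagla, Daglb) make 2-AG and monoacylglycerol lipase (Mgll) breaks it down, mainly in axon terminals and astrocytes. N-acylphosphatidylethanolamine phospholipase D (Napepld) makes anandamide and related N-acylethanolamines. Fatty acid amide hydrolase (Faah), a membrane enzyme of neurons, degrades anandamide, while N-acylethanolamine acid amidase (Naaa) is a lysosomal enzyme, abundant in macrophages, that prefers the anti-inflammatory lipid palmitoylethanolamide. CB1 signalling in the amygdala is known for its part in the extinction of fear, and its activation limits seizures in rodent models.

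The promoters of the measured degrading enzymes are shown first, since Naaa differed between the states in the test below and the averages of Faah and Mgll lay in opposite directions. Each holds 250 bases before and 50 after the annotated start of the gene, from RefSeq on build GRCr8, where 4 of the 6 symbols matched (Faah, Mgll, Napepld and Naaa). The Faah window belongs to 1 of the 2 gene records that its probe sets list. The sequences run 5′ to 3′ on the strand of the gene. Capitals mark matches on either strand to GGGCGG (GC box), CCAAT (CAAT box) and CACGTG (E-box).
Faah promoter, chr5:134735347-134735646, minus strand: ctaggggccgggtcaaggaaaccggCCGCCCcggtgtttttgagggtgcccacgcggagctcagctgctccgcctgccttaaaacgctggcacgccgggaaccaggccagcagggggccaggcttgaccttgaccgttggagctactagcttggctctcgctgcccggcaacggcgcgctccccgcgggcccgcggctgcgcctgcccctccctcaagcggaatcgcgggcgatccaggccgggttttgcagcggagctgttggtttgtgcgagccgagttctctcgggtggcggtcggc
Mgll promoter, chr4:122749186-122749485, plus strand: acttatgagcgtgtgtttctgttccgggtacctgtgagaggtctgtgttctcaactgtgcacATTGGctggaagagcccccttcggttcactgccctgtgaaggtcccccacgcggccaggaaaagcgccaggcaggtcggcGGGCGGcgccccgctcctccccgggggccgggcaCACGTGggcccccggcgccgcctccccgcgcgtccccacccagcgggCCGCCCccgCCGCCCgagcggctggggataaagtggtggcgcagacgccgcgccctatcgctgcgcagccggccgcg
Naaa promoter, chr14:16061349-16061648, plus strand: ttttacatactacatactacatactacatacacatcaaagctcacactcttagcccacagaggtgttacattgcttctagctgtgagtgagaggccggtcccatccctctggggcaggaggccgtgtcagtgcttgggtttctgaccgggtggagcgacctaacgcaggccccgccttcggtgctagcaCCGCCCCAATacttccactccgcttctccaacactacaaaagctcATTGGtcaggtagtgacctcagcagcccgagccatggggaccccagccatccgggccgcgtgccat

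The Mgll window held 3 GC boxes, 1 CAAT box and 1 E-box, the Faah window 1 GC box, and the Naaa window 1 GC box and 2 CAAT boxes, the first of which overlaps the GC box. Among 33469 promoter windows of the same length, 33.1% held a GC box, 37.5% a CAAT box and 6.42% an E-box. The letters TGANTCA (AP-1, in 7.33% of windows), TGACGTCA (cyclic AMP element, 1.83%) and GAGGAAGT (an ETS site of the type bound by PU.1, 2.42%) were in none of these 3 windows. Bases G and C made up 69.7% of the Faah, 72.3% of the Mgll and 56.7% of the Naaa window, against a median of 51.7%. A match is a description of the letters only.

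Naaa was the only measured member that rose in epileptogenic rats by the test of all probe sets. The signals of Cnr1 and Faah were lower and those of Mgll higher on average, but these did not pass. This comparison, of 4 against 4 arrays, asks how amygdala transcripts differ in the second week after status epilepticus. It was made on log2 signals with limma, with Benjamini-Hochberg adjustment over all 18625 tested probe sets, and a call is an adjusted p under 0.05. Of the 8 tested member probe sets 1 was called (12.5%), against 3.63% of all tested probe sets (2.81% higher and 0.827% lower). With the array letter as a block, 2 of 8 were called, Naaa and the dimmer Cnr1 probe set, against 16.2% of all (7.58% higher and 8.65% lower). In tissue samples such as these, a change in the number of cells of a type and a change in RNA per cell cannot be told apart.

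**Figure D1:**
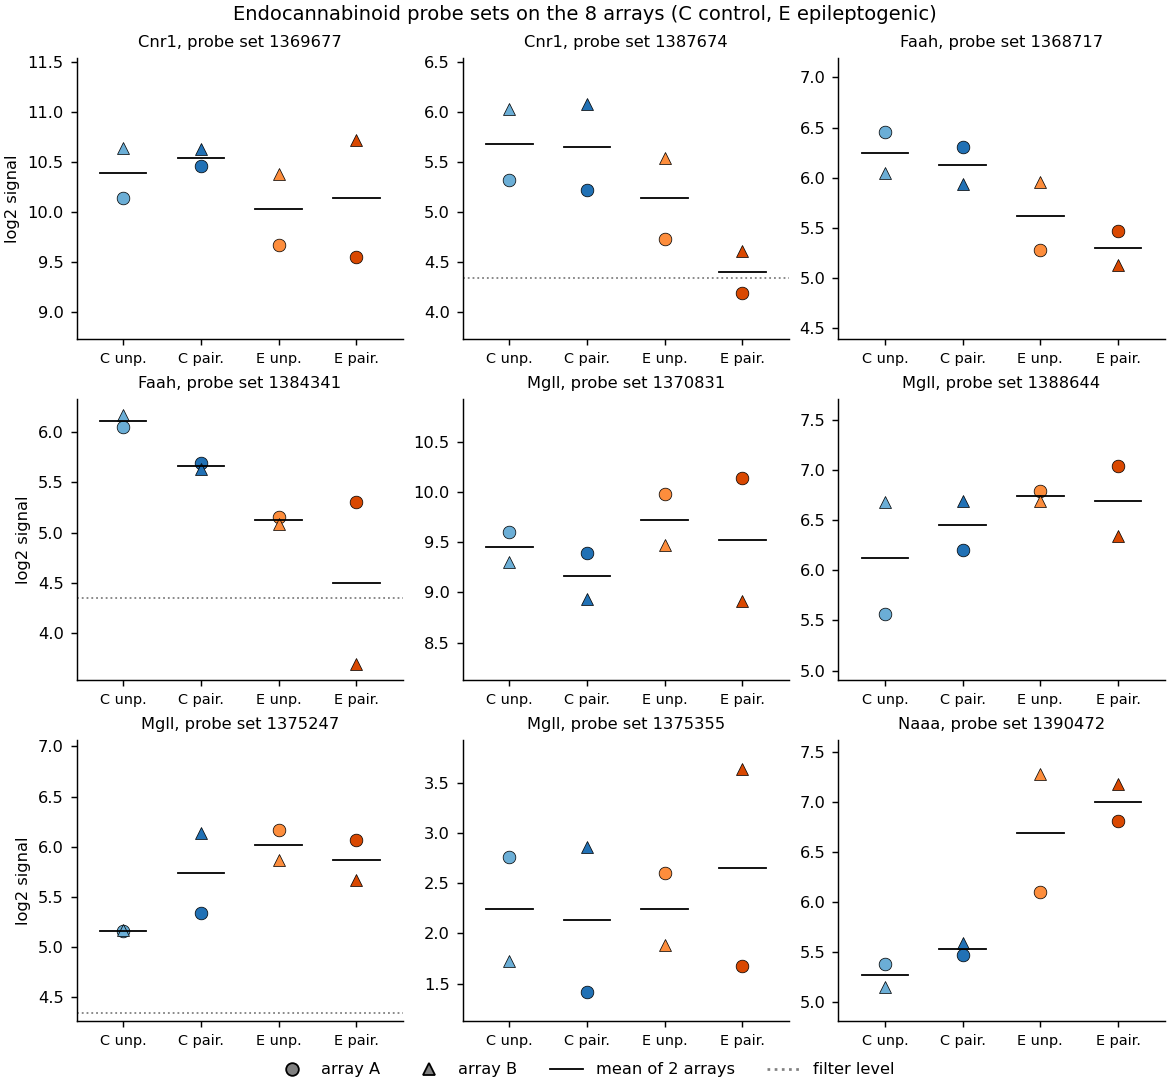
Log2 signal of the 9 member probe sets (vertical axis, each panel spanning the same range of log2 units) in the 4 groups, where C is control and E is epileptogenic, circles are array A, triangles array B, bars the mean of 2 arrays and the dotted line the filter level of 4.35. All 4 epileptogenic arrays of Naaa (6.10 to 7.27) lie above all 4 control arrays (5.15 to 5.59), while the arrays of both Cnr1 and all Mgll probe sets overlap between the states.

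Naaa (probe set 1390472) had a log2 signal of 5.39 on array A and 5.15 on array B of control unpaired rats and of 5.47 and 5.59 in control paired rats. In epileptogenic rats it read 6.10 and 7.27 after unpaired training and 6.81 and 7.18 after paired training. All epileptogenic arrays were higher than all control arrays, and the lowest was epileptogenic unpaired A. The means were 6.84 ± 0.53 (SD, n = 4) and 5.40 ± 0.19, a rise of 1.44 ± 0.30 (log2, SE) or 2.71-fold, with a limma adjusted p of 0.0317 (0.00482 with the letter as a block). The 95% interval of the difference ran from 0.77 to 2.11, and 2.26% of all tested probe sets had a change at least as large and positive. Between arrays of the same letter and training, the difference was 0.71, 2.12, 1.34 and 1.59. That it was higher in 4 of 4 follows from the states not overlapping. The estimate was 1.15 to 1.73 with any 1 array left out, but the call held in 1 of these 8 fits, the one without epileptogenic unpaired A (adjusted p = 0.0179). In the other 7 fits the adjusted p was between 0.0707 and 0.105.

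Most markers of macrophages and microglia moved in the same direction as Naaa. Of 9 tested genes of a list of 10, 8 rose, with a median log2 change of 2.02. Those with the smallest p were Laptm5 at 2.67 ± 0.19 (SE) and P2ry12 at 1.75 ± 0.19. The other tested gene, Cx3cr1, showed -0.40 ± 0.58 and did not pass (limma adjusted p = 0.76). Cd68, among the 8, had a mean control log2 signal of 4.12, under the filter level. It entered the test through its epileptogenic arrays (7.82 to 8.64), so that its call is no support for a rise. The summed signal of all 10 was between 1286 and 2383 in control and between 5769 and 9071 in epileptogenic arrays. The part of these cells in the Naaa difference was not tested. Among all 10369 other genes, the pair whose centred log2 signals over the 8 arrays lay closest to those of Naaa were Tfcp2l1, a transcription factor gene, and Vav1, which encodes an exchange factor of blood cells. Their root mean square differences were 0.13 and 0.14, against a median of 0.90 over all genes.

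Faah had the lower signal in epileptogenic rats on both probe sets, but neither passed. The probe set 1384341 read 6.05 and 6.17 (log2, arrays A and B) in control unpaired, 5.70 and 5.64 in control paired, 5.16 and 5.08 in epileptogenic unpaired and 5.31 and 3.68 in epileptogenic paired rats. The states did not overlap, and array B of the epileptogenic paired group lay far under the others and under the filter level. The mean was 4.81 ± 0.75 (SD, n = 4) in epileptogenic rats and 5.89 ± 0.26 in controls, a difference of -1.08 ± 0.38 (log2, SE; 95% interval -1.93 to -0.24), with a limma adjusted p of 0.162 (0.0533 with the block). Without the low array the difference was -0.68 and the adjusted p 0.295.

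The other Faah probe set, 1368717, pointed the same way with a smaller difference. It read 6.46 and 6.04 (log2, arrays A and B) in control unpaired, 6.31 and 5.94 in control paired, 5.28 and 5.96 in epileptogenic unpaired and 5.47 and 5.13 in epileptogenic paired rats. Epileptogenic unpaired B alone reached the range of the control arrays. The difference was -0.72 ± 0.28 (log2, SE; 95% interval -1.34 to -0.11; limma adjusted p = 0.196, 0.0799 with the block), or 1.65-fold lower. Over both probe sets, the epileptogenic array was lower in 4 of 4 matched comparisons each. Not overlapping between the states, as in Naaa and this gene's first probe set, was found in 2 of the 8 tested member probe sets and in 15.1% of all tested probe sets (7.29% higher and 7.77% lower). The genes closest to Faah in centred signal were Srebf2, a transcription factor of sterol synthesis, and Prmt9, an arginine methyltransferase gene, with root mean square differences of 0.15 and 0.16 (median over genes 0.55).

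**Figure D2:**
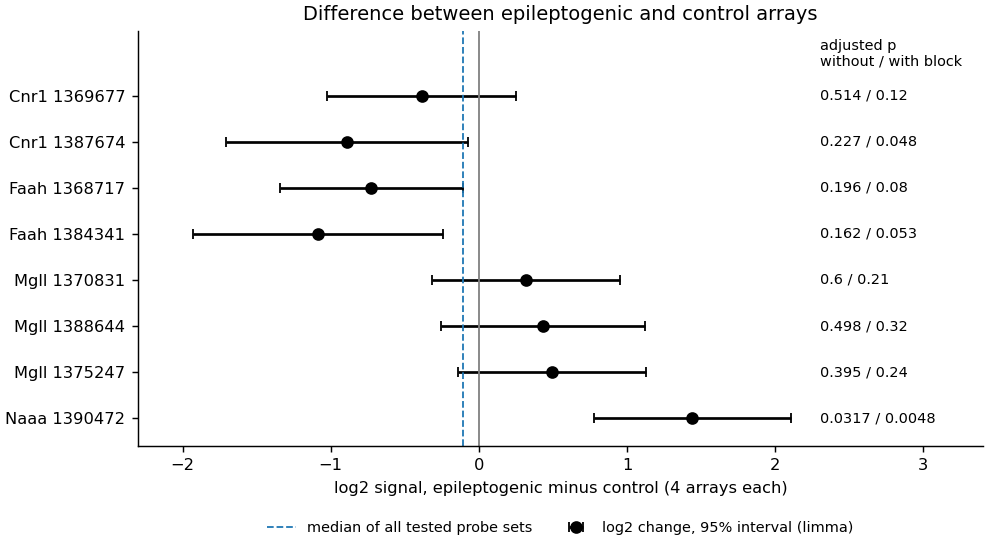
Log2 signal in epileptogenic minus control arrays (horizontal axis, 4 arrays each) for the 8 tested member probe sets, with 95% intervals from limma, adjusted p without and with the replicate block at the right, and a dashed line at the median of all tested probe sets (-0.11). The interval of Naaa runs from 0.77 to 2.11, those of both Faah probe sets and of Cnr1 1387674 lie below 0, and those of Mgll include 0.

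Cnr1 gave unlike sizes on its 2 probe sets. The brighter, 1369677, read 10.15 and 10.64 (log2, arrays A and B) in control unpaired, 10.46 and 10.63 in control paired, 9.67 and 10.39 in epileptogenic unpaired and 9.55 and 10.72 in epileptogenic paired rats. The states overlapped, since epileptogenic paired B was the highest of all 8 arrays and epileptogenic paired A the lowest. The difference was -0.39 ± 0.28 (log2, SE; 95% interval -1.02 to 0.25), with a limma adjusted p of 0.514 (0.123 with the block). It was -0.69 between the A arrays and -0.08 between the B arrays, and in both states the B arrays were higher, by 0.33 in control and 0.95 in epileptogenic rats. Without epileptogenic paired A the estimate was -0.09, and without epileptogenic paired B -0.68.

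The dimmer Cnr1 probe set, 1387674, was lower in epileptogenic rats in 4 of 4 matched comparisons, a pattern not counted over all probe sets. It read 5.32 and 6.03 (log2, arrays A and B) in control unpaired, 5.22 and 6.08 in control paired, 4.74 and 5.54 in epileptogenic unpaired and 4.19 and 4.61 in epileptogenic paired rats. The lowest value, in epileptogenic paired A, lay under the filter level. The difference was -0.89 ± 0.36 (log2, SE; 95% interval -1.71 to -0.08). It did not pass in limma without the block (adjusted p = 0.227) and passed with it (adjusted p = 0.0476). The difference was -0.81 between the A arrays and -0.98 between the B arrays. Closest to the brighter Cnr1 probe set in centred signal were B4gat1, a glycosyltransferase gene, and Stxbp6, which encodes a SNARE-binding protein, with root mean square differences of 0.07 and 0.11 (median over genes 0.57).

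Neuronal markers had lower medians beside Cnr1 and Faah. Of 8 tested excitatory neuron genes in a list of 10, 3 fell (6 with the block) and all 8 estimates were below 0, with a list median of -0.99, and the summed signal was between 3041 and 3995 in control and between 1787 and 2231 in epileptogenic arrays. Among the smallest p were Lmo3 at -1.16 ± 0.23 (log2, SE) and Neurod1 at -1.10 ± 0.24. Of 8 tested genes of GABAergic interneurons, 1 fell, Calb2 at -1.34 ± 0.24, and the list median was -0.28. Cck, a peptide gene of the interneurons richest in CB1, showed -0.10 ± 0.29 (limma adjusted p = 0.893). Which cells gave the Cck signal was not tested. The summed interneuron signal was between 4549 and 6607 in control and between 2611 and 5761 in epileptogenic arrays, so that the states overlapped. The part of neuron number in the Cnr1 and Faah differences was not tested.

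Mgll had higher mean signals in epileptogenic rats on its 3 tested probe sets, and none of these was called. The brightest, 1370831, read 9.61 and 9.31 (log2, arrays A and B) in control unpaired, 9.39 and 8.93 in control paired, 9.98 and 9.47 in epileptogenic unpaired and 10.14 and 8.91 in epileptogenic paired rats. The A arrays of epileptogenic rats were the highest, and epileptogenic paired B was the lowest of all 8. The difference was 0.32 ± 0.28 (log2, SE; 95% interval -0.32 to 0.95; limma adjusted p = 0.6001, 0.206 with the block). It was 0.56 between the A arrays and 0.08 between the B arrays.

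The next Mgll probe set, 1388644, read 5.57 and 6.68 (log2, arrays A and B) in control unpaired, 6.20 and 6.70 in control paired, 6.79 and 6.70 in epileptogenic unpaired and 7.04 and 6.35 in epileptogenic paired rats. Only control unpaired A stood clearly below the rest. The difference was 0.43 ± 0.31 (log2, SE; limma adjusted p = 0.498), at 1.03 between the A arrays and -0.17 between the B arrays. The probe set 1375247 read 5.16 and 5.17 in control unpaired, 5.33 and 6.14 in control paired, 6.16 and 5.86 in epileptogenic unpaired and 6.07 and 5.67 in epileptogenic paired rats. Control paired B lay among the epileptogenic arrays. The difference was 0.49 ± 0.28 (limma adjusted p = 0.395), at 0.87 between the A and 0.12 between the B arrays. In the 3 tested probe sets the difference was thus larger between the A arrays, and whether it differs between the letters was not tested.

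The fourth Mgll probe set, 1375355, lay under the filter level on all 8 arrays, with log2 signals between 1.41 and 2.86 in control and between 1.67 and 3.64 in epileptogenic arrays. It was not tested and adds no order between the groups. Genes closest to the brightest Mgll probe set were Shld2, of DNA repair, and Khnyn, with root mean square differences of 0.12 and 0.12 (median over genes 0.55). Some markers of myelin and of astrocytes, the latter a site of Mgll, differed between the states. Of 8 tested oligodendrocyte genes 2 rose, and 5 with the block (list median 0.70; summed signal 11500 to 14100 in control and 14890 to 27790 in epileptogenic arrays), with Aspa at 1.74 ± 0.26 and Bcas1 at 0.79 ± 0.17 (log2, SE). Of 9 tested genes in a list of reactive astrocytes 6 rose, with Gfap at 2.83 ± 0.29 and Vim at 2.10 ± 0.32. The list median was 1.47, and the summed signal was 4274 to 7563 in control and 10190 to 12750 in epileptogenic arrays. Cd44, among the 6, had a mean control log2 signal of 4.02, under the filter level. It entered the test through its epileptogenic arrays (6.82 to 7.27), so that its call is no support for a rise. The 3 that did not pass were Slc1a3 at 0.06, Slc1a2 at 0.36 and Aldh1l1 at 0.12. Serpina3n, of the same list, was not tested, with mean log2 signals of 4.16 in control and 4.19 in epileptogenic arrays. The part of oligodendrocytes and astrocytes in the Mgll values was not tested.

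**Figure D3:**
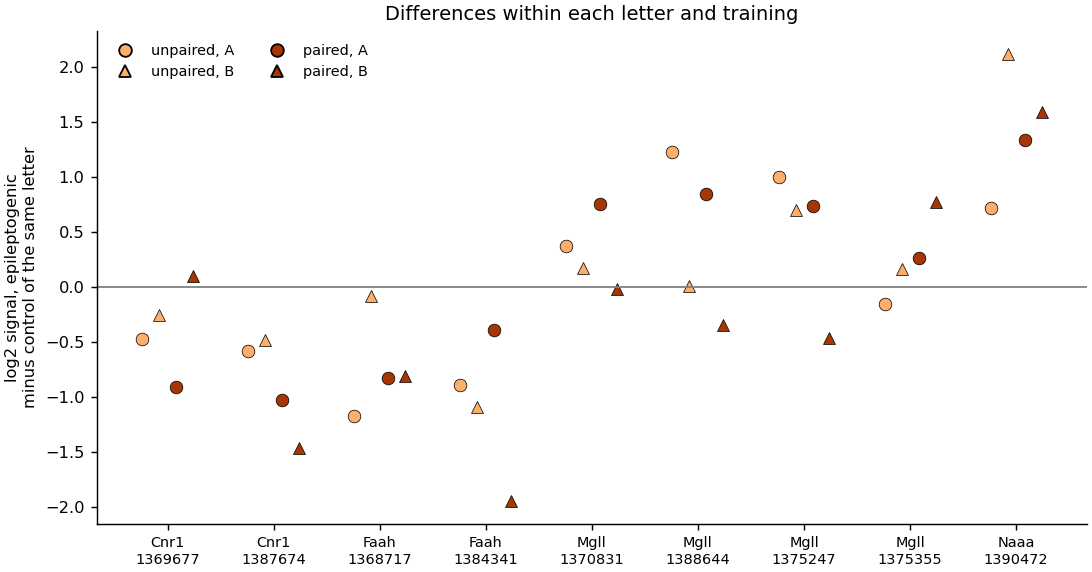
Log2 signal of the epileptogenic array minus the control array of the same letter and training (vertical axis) for the 9 member probe sets, with light points for unpaired and dark points for paired training, circles for letter A and triangles for letter B. All 4 differences are above 0 for Naaa (0.71 to 2.12) and below 0 for both Faah probe sets and Cnr1 1387674, while the Mgll probe sets hold both signs.

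The direction held after each training when read apart, where each comparison rests on 2 against 2 arrays. Naaa was higher by 1.42 ± 0.42 (log2, SE) after unpaired and by 1.46 ± 0.42 after paired training. Neither passed in limma (adjusted p = 0.211 and 0.217), and both did with the block (0.0424 and 0.0480). Without the block 0 of 8 member probe sets were called after each training. After unpaired training 0.317% of all probe sets were called (0.29% higher and 0.0268% lower), and with the block 7.01% (3.4% and 3.61%). After paired training 0.532% were called (0.521% higher and 0.0107% lower), and with the block 4.62% (3.45% and 1.17%). The dimmer Cnr1 probe set differed by -0.53 ± 0.51 after unpaired and by -1.25 ± 0.51 after paired training, and Faah 1384341 by -0.99 ± 0.53 and -1.17 ± 0.53. For Mgll 1375247 the difference was 0.85 ± 0.40 after unpaired and 0.14 ± 0.40 after paired training. In these pairs of estimates no member passed in either fit apart from Naaa with the block.

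No member passed the test of fear training. Paired against unpaired training, over 4 and 4 arrays, addresses what the coupling of tone and shock adds to the same stimuli. In limma 0 of the 8 member probe sets were called, as were 0 of all 18625 (0%), with or without the block. At an unadjusted p under 0.05 there were 0 member probe sets and 214 of all probe sets (1.15%). The estimates lay between -0.54 ± 0.38 (log2, SE) for Faah 1384341 and 0.29 ± 0.30 for Naaa, with a 95% interval of -1.38 to 0.31 for the former and -0.38 to 0.95 for the latter. For the brighter Cnr1 probe set the interval was -0.51 to 0.77. Faah 1384341 was lower after paired training in both control pairs, by 0.36 and 0.54, and in epileptogenic rats it was higher by 0.15 on the A arrays, while the B array read 5.08 after unpaired and 3.68 after paired training.

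Whether the response to training differed between epileptogenic and control rats was tested as an interaction, and 0 member probe sets and 0 of all 18625 (0%) were called in limma with or without the block. At an unadjusted p under 0.05 there were 0 members and 274 of all probe sets. The largest estimates among members were -0.72 ± 0.73 (log2, SE) for Cnr1 1387674 and -0.71 ± 0.56 for Mgll 1375247, each with an adjusted p of 1.00. In Cnr1 1387674 the paired array was lower than the unpaired array by 0.54 and 0.94 in epileptogenic rats, and differed by -0.10 and 0.05 in control rats. The smallest was -0.04 ± 0.57 for the brighter Cnr1 probe set, with a 95% interval of -1.31 to 1.23.

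Other genes of the pathway moved in both directions between epileptogenic and control rats. Of 39 listed genes 33 had a probe set and 27 were tested. In limma 5 passed as higher and 2 as lower, 25.9% against 3.63% of all tested probe sets, and with the block 7 rose and 6 fell, 48.1% against 16.2%. The units differ, since the pathway shares count genes by their brightest probe set and the others count every tested probe set. The lists were also chosen with earlier results of these data known, so these shares are no test of the pathway. Without Plcb3, whose control arrays all lay under the filter level, 4 of 26 rose and 2 fell (23.1%), and with the block 6 rose and 6 fell (46.2%). The median log2 change of the 27 was -0.45, against -0.11 over all tested probe sets, and 10 estimates were above and 17 below 0. Leaving out 1 array at a time, 1 to 3 of the 27 passed.

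Among the synthesis enzymes Daglb and Abhd4 rose, and Plcb3 passed with dim control signals. Daglb, which makes 2-AG and is the diacylglycerol lipase of microglia in mice, was the counterpart on the array of the unmeasured Dagla. Its log2 signal was between 6.36 and 7.35 on control arrays and between 7.98 and 8.74 on epileptogenic arrays, with no overlap. The rise was 1.42 ± 0.28 (SE; limma adjusted p = 0.0262), whereas its second probe set showed 0.46 and did not pass (adjusted p = 0.528). Abhd4, a lipase on another route to N-acylethanolamines, had signals between 7.88 and 8.26 and between 9.12 and 9.65, and rose by 1.23 ± 0.19 (adjusted p = 0.0105). Plcb3, a phospholipase C that supplies diacylglycerol, passed with an estimate of 2.27 ± 0.45 (adjusted p = 0.0279), but all 4 control arrays (3.01 to 3.98) lay under the filter level. It entered the test through its epileptogenic arrays (4.52 to 6.43), so that its size and call are no support for a rise. Plcb1, the form prominent in forebrain neurons, showed -0.69 ± 0.19 and passed with the block only (adjusted p = 0.0839 without, 0.0118 with it). In this group 3 of 8 tested genes passed as higher, Plcb3 included, and 0 as lower (1 with the block), at a median of 0.14.

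Among degrading enzymes and carriers, the fatty acid binding protein genes Fabp7 and Fabp5, whose products can carry anandamide inside cells, rose by 1.34 ± 0.25 and 0.79 ± 0.18 (log2, SE; limma adjusted p = 0.0226 and 0.0476). Fabp7 is a protein of astrocytes. Asah1, the lysosomal acid ceramidase and a relative of Naaa, showed 0.89 ± 0.28 and passed with the block only (adjusted p = 0.121 without, 0.0164 with it), while its second probe set showed 0.05. The alternative 2-AG hydrolases Abhd6 and Abhd12 showed -0.45 ± 0.21 and 0.12 ± 0.30 and did not pass. Of these 7 tested genes 2 rose and 0 fell, at a median of 0.12.

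Upstream and downstream of the receptor 2 genes passed as lower and none as higher in the fit without the block. Cnrip1, which encodes a protein that binds the tail of the CB1 receptor, had log2 signals between 8.93 and 9.16 on control and between 8.16 and 8.54 on epileptogenic arrays. It fell by 0.78 on the log2 scale (SE 0.17, limma adjusted p = 0.0419), but did not pass with median centring (limma adjusted p = 0.255). Of 4 tested Gq-coupled receptors that can drive 2-AG release, the serotonin receptor gene Htr2c fell, with -1.13 ± 0.19 (limma adjusted p = 0.0164). Its second probe set showed -0.82 (limma adjusted p = 0.295). With median centring Htr2c did not pass either (limma adjusted p = 0.141). Grm5, the metabotropic glutamate receptor most tied to 2-AG release, showed -0.70 ± 0.20 (adjusted p = 0.101, 0.0168 with the block). Of 6 tested signalling partners of CB1 none passed (0 at adjusted p under 0.05 in limma). With the block Gnai2, at 0.53 ± 0.26, and Gnb1 and Rgs4, at -0.50 ± 0.17 and -0.74 ± 0.22, passed. Other probe sets of Gnb1 passed with the block in both directions, at 0.81 and -0.54 (limma adjusted p = 0.0301 and 0.0396). The medians were -0.52 for the Gq-coupled receptors and -0.50 for the signalling partners.

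**Figure D4:**
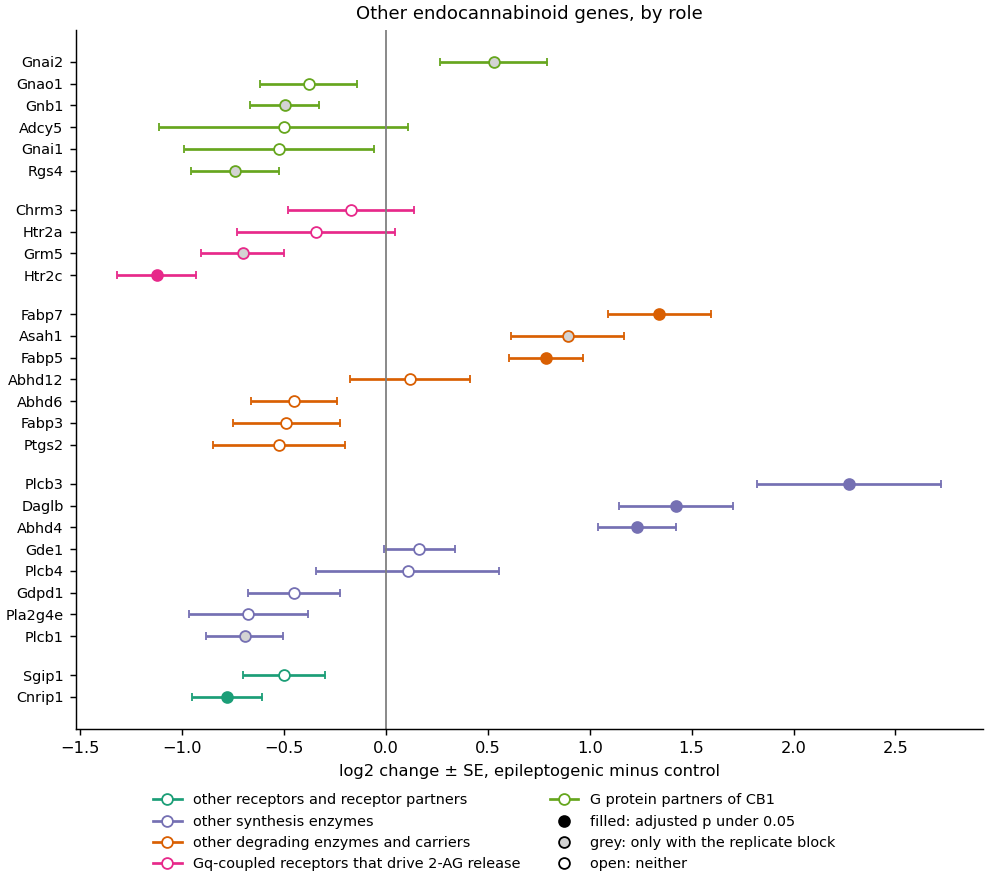
Log2 change with SE (horizontal axis, epileptogenic minus control, 4 arrays each) of the 27 tested other pathway genes, in 5 groups by role, where filled points passed in limma, grey points passed with the replicate block only and open points in neither. Daglb (1.42), Fabp7 (1.34), Abhd4 (1.23), Fabp5 (0.79) and Plcb3, whose control arrays all lay under the filter level, are filled on the right, and Cnrip1 (-0.78) and Htr2c (-1.13) on the left.

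Cnr2, the gene of the CB2 receptor found mainly on immune cells, lay under the filter level on average (mean log2 signal 3.72) and was not part of the test above. Its log2 signal was 3.06 and 1.87 (arrays A and B) in control unpaired, 2.21 and 1.84 in control paired, 5.58 and 5.33 in epileptogenic unpaired and 5.01 and 4.85 in epileptogenic paired rats. All 4 control arrays lay under and all 4 epileptogenic arrays above the filter level of 4.35. In a limma fit of all 31042 probe sets with no filter, the difference was 2.95 ± 0.57 (SE; adjusted p = 0.0258), where 1.86% of probe sets were called. Its size rests on dim control signals, for which no background level was set. Most of the same markers of macrophages and microglia moved with it, and their part was not tested. Trpv1, the ion channel that anandamide can open, was under the filter level on all arrays, and Ppara, a nuclear receptor for palmitoylethanolamide, rose above it on 1 control array only.

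For the data as a whole, array medians of the signal ran from 29.0 to 43.2, and correlations of log2 signal between arrays ran from 0.850 to 0.925. The ratio of 3′ to 5′ control probe sets, a sign of RNA length, was between 8.54 and 18.2 for Gapdh and between 3.65 and 21.9 for Actb. For Actb the 4 B arrays (14.1 to 21.9) lay above the 4 A arrays (3.65 to 12.3), the letter that also moved with the Cnr1 signals. For Gapdh the highest ratios were on the A arrays of epileptogenic rats, 16 after unpaired and 18.2 after paired training. All other arrays lay between 8.54 and 12.9. Those A arrays also had the lowest signals of Cnr1 1369677 (9.67 and 9.55) and the highest of Mgll 1370831 (9.98 and 10.14). The part of these ratios was not tested. Markers of excitatory neurons were present, with Lmo3 at a mean log2 signal of 10.20 in control arrays, although Slc17a7 read 5.43 and Tbr1 3.77. Markers of striatal and central amygdala neurons were present as well, such as Penk at 10.95 and Drd1 at 8.72, and 0 of the 9 tested in that list passed between the states in limma (1 with the block; unadjusted p under 0.05 for Prkcd, 0.0292).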

How the data were processed

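The deposited values are signal intensities per probe set on a linear scale, made by the authors with MAS5, per the submitters' processing notes; the version, the scaling target and the genome build are not given in the sources used here. Detection calls were not used. The 57 control probe sets were left out, and the log2 of each signal was taken, with no normalization added. Of 31042 probe sets 20837 carry 1 gene symbol, 425 several and 9780 none in the platform annotation. Limma 3.58.1 in R 4.3.3 was fitted with 4 group means and an intensity trend, with two-sided tests at 0.05. SE comes from this fit and SD is between arrays. The fit was tested on simulated data in which arrays varied independently. That setting leaves out the correlation between arrays of like letter, so it cannot show how the fit handles it. The number of arrays limits the precision. P-values measure the spread between arrays, each a pool of 2 rats. Without the block that spread includes the difference between letters A and B. For Cnr1 1369677 the SE was 0.283 without and 0.156 with the block.

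The members, lists and tests were chosen with earlier results of these data known. Named were all member probe sets, pathway genes that passed in either fit, at most 2 genes of each marker list by smallest p, and for each member the 2 genes with the smallest root mean square difference. Cck, Cnr2, Cx3cr1, Cd68, Cd44, Serpina3n, Slc1a2, Slc1a3, Aldh1l1, Abhd6, Abhd12, Trpv1, Ppara and the neuronal markers given by level were named outside this rule, after their values were seen. Genes other than members were read by their brightest probe set.

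Between arrays of like letter, deviations from the group mean correlated at 0.321 to 0.407 over the 6 pairs of groups, so the letter was taken to pair the samples and the replicate block is given beside results whose call it changes. Other settings were quantile normalization, median centring, an offset of 16, no filter, a filter at the 60th percentile, no trend, array weights, probe sets averaged per gene and each array left out in turn. Plots used matplotlib 3.10.9 (Python 3.11.15).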

Additional observations from a re-analysis of the deposited data

Results flagged for a closer look

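The log2 signal of Faah probe set 1384341 on array B of the epileptogenic paired group, 3.685, stood apart from the other 3 epileptogenic arrays (5.08 to 5.31). Its gap to the nearest of them was 0.863 of the whole range, above the 95% critical value in Dixon's test for 4 values. Chance alone passes that value in about 1 of 20 groups, and 18 sets of 4 arrays were examined. The same array was also the lowest of the epileptogenic arrays for the other Faah probe set (5.13) and for Mgll 1370831 (8.91), and the highest for Cnr1 1369677 (10.72).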

How the results depend on the processing

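In the comparison of epileptogenic with control arrays every tested member probe set kept its direction under all settings run. Naaa ranged from 1.17 to 1.55 with all arrays and from 1.15 to 1.73 with 1 left out. It missed the threshold in 7 of the 8 fits with 1 array left out and with no intensity trend (1.44, adjusted p = 0.0627), where 0 members were called; it was near the threshold with median centring (1.55, adjusted p = 0.0494). With the replicate block 2 members were called in this comparison and 1 (Naaa) after each training. With 1 array left out, 0 to 1 were called. Median centring moved the median log2 change of all probe sets from -0.11 to -0.005; relative to it Cnr1 differed by -0.28 and -0.79, Faah by -0.62 and -0.98 and Mgll by 0.42 to 0.60.

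Over all probe sets 677 were called (523 higher, 154 lower, 77.3% higher), 389 with median centring (377 and 12, 96.9%), 330 with no trend (297 and 33), 3022 with the replicate block (1411 and 1611, 46.7%) and 224 to 435 with 1 array left out. Of other pathway genes 7 were called, 6 without Plcb3 (a setting chosen after seeing the data), 2 with centring (Abhd4, Plcb3), 2 with no trend, 13 with the block and 1 to 3 with 1 array left out; of the 8 such fits Abhd4 passed in 7, Htr2c in 5, Daglb and Fabp7 in 3, Plcb3 and Plcb1 in 1 and Cnrip1 and Fabp5 in 0. After unpaired training 59 probe sets were called, 98 with quantile normalization, 103 with the stricter filter, 0 with centring or no trend, 1306 with the block and 0 to 34 with 1 array left out. After paired training 99 were called, 0 with centring or no trend, 860 with the block and 0 to 74 with 1 array left out.

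Changes that turned sign were all among estimates that did not pass. For training, averaging probe sets per gene gave -0.13 for Cnr1 (1369677) and 0.0643 for Mgll (1370831). With 1 array left out, training gave -0.16 to 0.42 for that Cnr1 probe set, -0.55 to 0.0582 for that Mgll probe set, -0.14 to 0.41 for Mgll 1388644 and -0.00795 to 0.58 for Naaa. For the interaction, the offset gave 0.00799 for Faah 1384341; quantile normalization, centring and the mean of probe sets gave -0.00912, -0.0709 and -0.12 for Mgll 1370831; quantile normalization and centring gave -0.0547 and -0.12 for Naaa. With 1 array left out it ran from -0.63 to 0.55 (Cnr1 1369677), -0.53 to 0.15 (Faah 1368717), -0.99 to 0.63 (Faah 1384341), -0.52 to 0.71 (Mgll 1370831), -0.93 to 0.19 (Mgll 1388644) and -0.54 to 0.63 (Naaa). The difference between states after paired training ran from -0.99 to 0.18 (Cnr1 1369677), -0.25 to 0.98 (Mgll 1370831), -0.10 to 0.60 (Mgll 1388644) and -0.26 to 0.54 (Mgll 1375247). The causes were not tested.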
